A study of Mus musculus with 12 samples.

Results

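The genes described here are 10 genes of macrophages and monocytes, the phagocytes that live in the colon wall or enter it from blood: Chil3, Arg1, Fcgr1, Ccr2, Ly6c2, Cd68, Adgre1, Cx3cr1, Mrc1 and Cd163. They were chosen by name, with results of these data already known, as the rows of the value table that carry exactly 1 of these symbols. All 10 were found among 22180 named genes, each on 1 probe set, the unit for which the array reports a signal. The series measured RNA from the colon of mice on Affymetrix whole-transcript arrays, 12 in all, with 3 arrays for each of 4 genotypes. Wild type (WT) is IL10+/+ STING+/+, SKO is IL10+/+ STING-/-, IL10KO is IL10-/- STING+/+ and DKO is IL10-/- STING-/-. The sources used here do not give strain, age, treatment, housing, the stretch of colon taken or the kind of allele behind each knockout. The labels carry a code per sample but do not say whether each is its own animal, so the p-values speak of the spread among these samples alone.

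Interleukin-10 is a cytokine that restrains macrophages, and its loss in mice is known to lead to chronic inflammation of the colon. STING, encoded by Sting1, is an adaptor that turns sensing of cytosolic DNA into interferon and inflammatory gene expression. The healthy colon wall is known to hold long-lived and monocyte-derived macrophages that have taken on a resident state, marked by F4/80, CX3CR1, CD206 and CD163. Monocytes enter from blood through the chemokine receptor CCR2, carry Ly6C, and in an inflamed gut are known to stay in an inflammatory state. The genes were grouped into inflammatory (Chil3, Arg1, Fcgr1, Ccr2, Ly6c2; n = 5) and resident (Adgre1, Cx3cr1, Mrc1, Cd163; n = 4), with Cd68 as a marker of the whole lineage. That background covers Ccr2, Ly6c2 and the resident genes. Chil3, Arg1 and Fcgr1 were placed in the inflammatory group by choice, with results known. The group name is therefore a label and not a finding about these genes. In RNA of whole tissue, fewer cells of a type and less RNA per cell cannot be told apart.

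Signals are on the log2 scale, where 1 unit is a doubling, and array medians lay between 4.80 and 5.02. Of 10 colon epithelial markers none lay below the lower quartile of its array on all arrays, and their mean signal was 10.26 to 10.96 on every array. Sting1 read 4.28 to 4.40 in SKO, 4.13 to 4.34 in DKO and 6.87 to 8.09 in IL10KO. In the libraries labelled WT it read 7.51, 6.40 and 4.56, and the last, the library labelled WT replicate 3, lies near the knockouts, so the results of the 10 genes and of the macrophage gene lists against WT are also given without it. Il10 itself read 3.59 to 3.80 in WT, 3.65 to 3.82 in SKO, 4.59 to 5.47 in IL10KO and 4.33 to 4.60 in DKO. Its signal thus separated the arrays by their labelled Il10 genotype, with the higher values in the knockouts. The sources used here do not say whether its probe set lies in the deleted part, so it is no check of the deletion itself. WT replicates 1 and 2 had high signals of 13 pancreatic acinar genes (mean 8.29 and 11.10, against 4.73 to 5.61 on the other arrays), and IL10KO replicates 2 and 3 of 18 squamous and sebaceous genes, whose values stand beside the results below.

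The first gene, Chil3 (probe set 17408897), encodes Ym1, a secreted chitinase-like protein that mouse macrophages and neutrophils make. It lies next to a close copy, Chil4, on chromosome 3, with no protein-coding gene between them. The promoters of this pair, of Fcgr1 and of Mrc1 are shown because Chil3 and Fcgr1 were among the 3 genes called in IL10KO, Chil4 was not, and Mrc1 stands for the resident genes. The sequences are the 250 bases before the annotated start in RefSeq (build GRCm38.p6), 5′ to 3′ on the gene's own strand. They were looked up by symbol, and 8 of the 10 genes had a RefSeq window. Capitals in Chil3, Chil4 and Fcgr1 mark matches to a STAT-like motif (TTCNNNGAA), and the second run of capitals in Chil4 a match to a C/EBP-like motif (TTGCNNAA). The second run in Fcgr1 and all runs in Mrc1 mark the core that PU.1, the lineage factor of macrophages, is known to bind (GAGGAA, here on the reverse strand as TTCCTC).
Chil3, chr3:106167565-106167814, minus strand: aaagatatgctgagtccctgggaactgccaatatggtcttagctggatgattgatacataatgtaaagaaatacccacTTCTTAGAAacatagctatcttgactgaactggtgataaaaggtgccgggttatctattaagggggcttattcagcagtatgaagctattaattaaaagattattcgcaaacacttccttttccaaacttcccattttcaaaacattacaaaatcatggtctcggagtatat
Chil4, chr3:106219480-106219729, minus strand: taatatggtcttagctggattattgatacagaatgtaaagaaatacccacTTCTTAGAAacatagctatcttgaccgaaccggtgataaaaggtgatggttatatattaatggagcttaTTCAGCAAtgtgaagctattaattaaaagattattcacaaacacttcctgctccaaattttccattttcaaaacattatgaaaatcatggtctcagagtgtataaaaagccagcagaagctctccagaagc
Fcgr1, chr3:96293970-96294219, minus strand: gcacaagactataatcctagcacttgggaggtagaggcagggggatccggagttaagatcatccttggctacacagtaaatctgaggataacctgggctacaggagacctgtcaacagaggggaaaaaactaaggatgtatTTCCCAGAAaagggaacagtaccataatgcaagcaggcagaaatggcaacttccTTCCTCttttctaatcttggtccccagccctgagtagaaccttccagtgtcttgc
Mrc1, chr2:14229164-14229413, plus strand: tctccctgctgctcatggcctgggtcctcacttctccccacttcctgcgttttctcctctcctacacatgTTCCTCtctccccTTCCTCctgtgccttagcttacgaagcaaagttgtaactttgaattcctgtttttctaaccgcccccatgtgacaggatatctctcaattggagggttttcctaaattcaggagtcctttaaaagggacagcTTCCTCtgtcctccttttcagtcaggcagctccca

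Both strands were searched in windows of 300 bases, which add the 50 bases after the start, and no match of 1 motif overlapped that of another in the sequences printed. Chil3 carried the STAT-like match TTCTTAGAA at -172 and Chil4 the same letters at -200, counted from the start site to the first base. The windows of Chil3 and Chil4 aligned over 270 bases, of which 251 were identical (93.0%). Fcgr1 carried TTCCCAGAA at -109 and the PU.1 core at -55, and Mrc1 the PU.1 core at -180, -167 and -35. Of 32851 promoter windows, 8.30% held the STAT-like motif, 28.3% the PU.1 core, 10.8% the C/EBP-like motif and 7.81% an AP-1-like motif (TGANTCA). Among the 8 genes with a window, 2 held the STAT-like motif (Chil3, Fcgr1), 4 the PU.1 core (Fcgr1, Ly6c2, Mrc1, Cd68) and 1 each of the others (Cd68). A match says only that the letters are in the window.

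Loss of IL-10 with STING present, IL10KO against WT, came with a rise of 3 of the 10 genes, all from the inflammatory group: Chil3 rose 8.67-fold, Arg1 5.20-fold and Fcgr1 2.16-fold. None of the resident genes passed the test, and neither did Cd68. Called means a limma adjusted p under 0.05, adjusted over all 22180 genes. Called genes made up 8.14% of all genes in this comparison and called rises 3.12%. IL10KO and WT arrays did not overlap for 3 of the 10 genes, the same 3, and for 30.0% of all genes. The median difference was 0.32 over the 10 genes, 1.11 over the inflammatory and 0.14 over the resident ones, against 0.03 over all genes.

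Chil3 read 6.99, 6.69 and 5.21 on the IL10KO arrays. The WT arrays read 2.84, 3.43 and 3.27, the SKO arrays 3.20, 3.41 and 3.17 and the DKO arrays 3.01, 3.54 and 2.96. All 3 IL10KO arrays lay above the other 9, which overlap one another. Its difference between IL10KO and WT was 3.12 ± 0.35 (SE, 95% interval 2.37 to 3.87, n = 3 per genotype, limma adjusted p = 0.000222). It was 3.16 without the library labelled WT replicate 3 (limma adjusted p = 0.000958). Its WT and SKO signals were under the lower quartile of all 12 arrays (3.45 to 3.72), so differences from them are read as lower bounds.

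The neighbouring copy Chil4 (probe set 17408911) read 3.44, 3.44 and 3.29 in IL10KO and 2.88 to 3.35 on the other arrays. All its signals were under the lower quartile of all 12 arrays, and IL10KO differed from WT by 0.30 ± 0.14, which did not pass (limma adjusted p = 0.199). The sources used here do not say how far probes of one copy bind RNA of the other, so the split of signal between the pair is uncertain. Another chitinase-like gene, Chil1, named after its values were seen, rose by 2.34 ± 0.22 (limma adjusted p = 6.21e-05).

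Arg1 (probe set 17239845), the arginase that macrophages use to turn arginine into ornithine, read 6.12, 7.55 and 7.87 in IL10KO. WT read 4.75, 4.92 and 4.73, SKO 4.76, 4.75 and 4.67, and DKO 4.83, 5.19 and 5.43. Every IL10KO array lay above the other 9, and the lowest of them, replicate 1, was the one with the highest Chil3. The rise over WT was 2.38 ± 0.33 (SE, 95% interval 1.67 to 3.08, limma adjusted p = 0.00107). It stood at 2.34 when the library labelled WT replicate 3 was omitted (limma adjusted p = 0.00454). Arg2, the mitochondrial arginase, rose by 1.41 ± 0.21 (limma adjusted p = 0.00186).

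Fcgr1 (probe set 17408024) encodes CD64, the high-affinity Fc receptor for IgG and a standard marker of gut macrophages. It read 6.61, 7.32 and 7.38 in IL10KO, against 6.08, 5.80 and 6.08 in WT, 6.0, 6.10 and 6.09 in SKO and 6.15, 5.88 and 6.07 in DKO. As with Arg1, IL10KO replicate 1 was the lowest of its genotype and still above the other 9 arrays. The rise was 1.11 ± 0.18 (SE, 95% interval 0.72 to 1.51, limma adjusted p = 0.00333). It came to 1.16 when the library labelled WT replicate 3 was omitted (limma adjusted p = 0.0105).

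**Figure D1:**
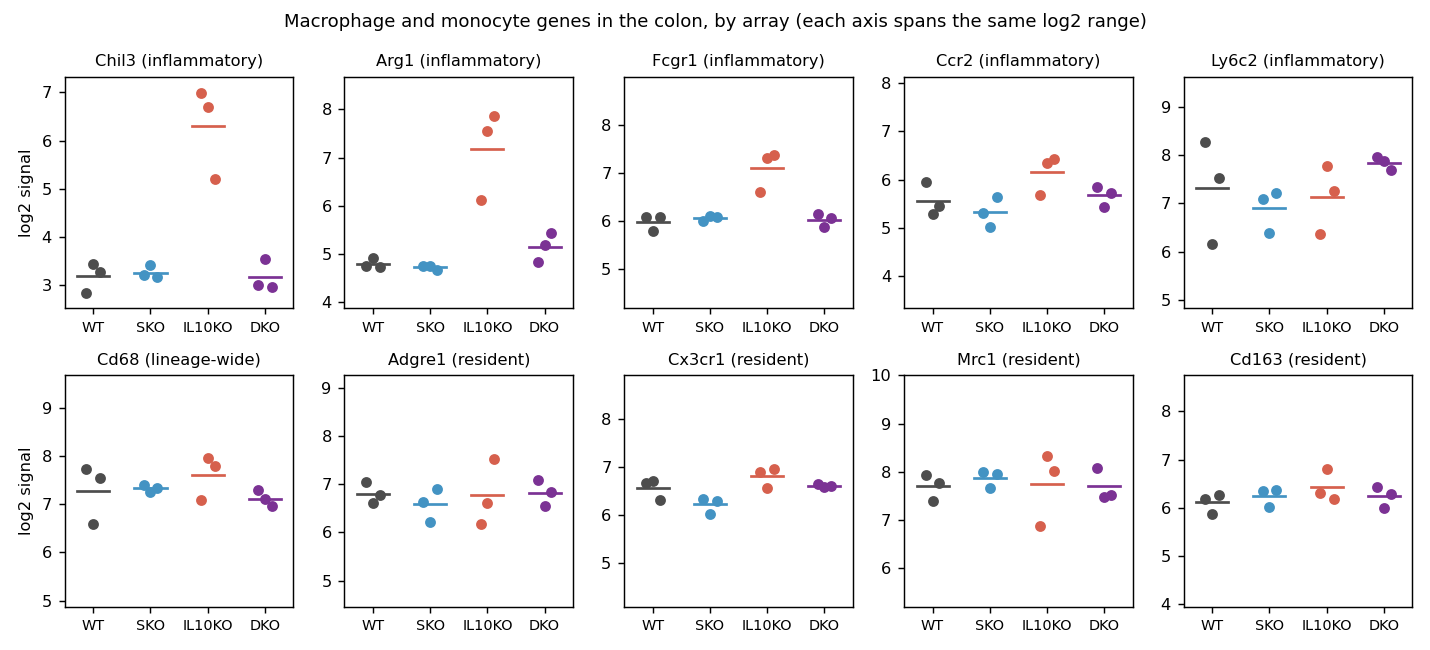
Log2 signal of the 10 genes by genotype, 1 panel per gene, with points for the 3 arrays and a line at their mean; each vertical axis spans the same log2 range. Chil3, Arg1 and Fcgr1 are high on all 3 IL10KO arrays, with Chil3 at 5.21 to 6.99 there, while the resident genes overlap between WT and IL10KO.

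The receptor and surface marker of incoming monocytes did not pass. Ccr2 (probe set 17523650), the receptor for the chemokine CCL2, read 5.67, 6.35 and 6.43 in IL10KO and 5.94, 5.29 and 5.45 in WT. It read 5.31, 5.02 and 5.64 in SKO and 5.84, 5.44 and 5.72 in DKO, so that only IL10KO replicates 2 and 3 stood above the rest. The difference from WT was 0.59 ± 0.23 (SE, 95% interval 0.09 to 1.08, limma adjusted p = 0.126). It passed only without IL10KO replicate 1 (0.83, limma adjusted p = 0.0441).

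Ly6c2 (probe set 17318100) encodes the Ly6C protein of classical monocytes and lies on chromosome 15 beside its close copy Ly6c1, with no protein-coding gene between them. It read 8.28, 6.16 and 7.53 in WT and 6.37, 7.77 and 7.26 in IL10KO. SKO read 7.09, 6.39 and 7.21 and DKO 7.97, 7.87 and 7.69. The WT arrays alone spanned more than any difference between genotypes, and the difference of IL10KO from WT was -0.19 ± 0.44 (95% interval -1.14 to 0.76, limma adjusted p = 0.815). Ly6c1 (probe set 17318089) did not pass either (0.66 ± 0.41, limma adjusted p = 0.322), and signal may be shared between the pair.

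Among the resident genes, Adgre1 (probe set 17339013), which encodes F4/80, read 6.18, 6.60 and 7.53 in IL10KO and 7.04, 6.60 and 6.78 in WT. The SKO arrays read 6.64, 6.22 and 6.89 and the DKO arrays 7.08, 6.55 and 6.84. The IL10KO arrays held both the lowest and the highest of all 12 values, and their mean differed from that of WT by -0.03 ± 0.29 (95% interval -0.65 to 0.58, limma adjusted p = 0.956). Cx3cr1 (probe set 17532268), the fractalkine receptor, read 6.89, 6.55 and 6.96 in IL10KO and 6.67, 6.70 and 6.32 in WT. It read 6.33, 6.03 and 6.29 in SKO and 6.65, 6.59 and 6.60 in DKO. Its difference between IL10KO and WT, 0.24 ± 0.15, did not pass (95% interval -0.09 to 0.56, limma adjusted p = 0.339).

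Mrc1 (probe set 17367102), the mannose receptor CD206, read 6.87, 8.33 and 8.02 in IL10KO and 7.93, 7.39 and 7.77 in WT. In SKO it read 8.0, 7.66 and 7.95 and in DKO 8.09, 7.48 and 7.51. IL10KO replicate 1 was the lowest and replicate 2 the highest of all 12 arrays, so the mean hides a wide spread, with a difference from WT of 0.04 ± 0.30 (95% interval -0.61 to 0.69, limma adjusted p = 0.946). Cd163 (probe set 17462843), the scavenger receptor for haemoglobin bound to haptoglobin, read 6.31, 6.81 and 6.19 in IL10KO and 6.19, 5.88 and 6.26 in WT. It read 6.34, 6.02 and 6.36 in SKO and 6.44, 5.99 and 6.29 in DKO, and only IL10KO replicate 2 stood above the other arrays. The difference of IL10KO from WT was 0.33 ± 0.19 (95% interval -0.07 to 0.73, limma adjusted p = 0.286).

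Cd68 (probe set 17264835), a lysosomal glycoprotein of all macrophages, read 7.08, 7.95 and 7.79 in IL10KO and 7.72, 6.59 and 7.54 in WT. SKO read 7.39, 7.26 and 7.33 and DKO 7.29, 7.10 and 6.96. Its IL10KO and WT arrays overlapped, with a difference of 0.32 ± 0.27 (95% interval -0.25 to 0.90, limma adjusted p = 0.465). For the genes that did not pass, the upper ends of the intervals allow rises of up to 1.08 (Ccr2), 0.90 (Cd68), 0.76 (Ly6c2), 0.73 (Cd163), 0.69 (Mrc1), 0.58 (Adgre1) and 0.56 (Cx3cr1). Without the library labelled WT replicate 3 none of these 7 genes passed either, and their differences were 0.53 (Ccr2), -0.09 (Ly6c2), -0.05 (Adgre1), 0.11 (Cx3cr1), 0.08 (Mrc1), 0.40 (Cd163) and 0.45 (Cd68).

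Loss of STING in mice without IL-10 was read from DKO against IL10KO. The same 3 genes were lower in DKO: Chil3 8.75-fold, Arg1 4.08-fold and Fcgr1 2.10-fold. For Chil3 this is read as a lower bound, since its DKO signals were at or below 3.54, about the lower quartile of the arrays. Both this comparison and the one above use the IL10KO arrays, so a high IL10KO array moves both. Called genes made up 5.79% of all genes and called falls 2.45%. The arrays of the 2 genotypes did not overlap for 3 of the 10 genes and for 27.2% of all genes. The median difference was -0.34 over the 10 genes, -1.07 over the inflammatory, -0.11 over the resident and -0.04 over all genes.

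Chil3 differed by -3.13 ± 0.35 (SE, 95% interval -3.88 to -2.38, limma adjusted p = 0.00028), with all DKO arrays at or below 3.54 and all IL10KO arrays at or above 5.21. Arg1 differed by -2.03 ± 0.33 (95% interval -2.73 to -1.32, limma adjusted p = 0.00339), and DKO replicate 3, its highest DKO array, read 5.43 against 6.12 in the lowest of IL10KO. Fcgr1 differed by -1.07 ± 0.18 (95% interval -1.47 to -0.67, limma adjusted p = 0.0052). Each of these calls held without any single array.

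The other inflammatory genes went opposite ways without passing. Ccr2 was lower in DKO by a difference of -0.48 ± 0.23 (limma adjusted p = 0.216), and Ly6c2 had a difference of 0.70 ± 0.44 (limma adjusted p = 0.338), with its DKO arrays above 2 of the IL10KO arrays and DKO replicate 3 below the other, at 7.77. The resident genes had differences of 0.05 ± 0.29 (Adgre1), -0.19 ± 0.15 (Cx3cr1), -0.04 ± 0.30 (Mrc1) and -0.20 ± 0.19 (Cd163), with limma adjusted p between 0.462 and 0.944. Their 95% intervals reached from -0.70 to 0.66 at most. Cd68 differed by -0.49 ± 0.27 (limma adjusted p = 0.274).

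**Figure D2:**
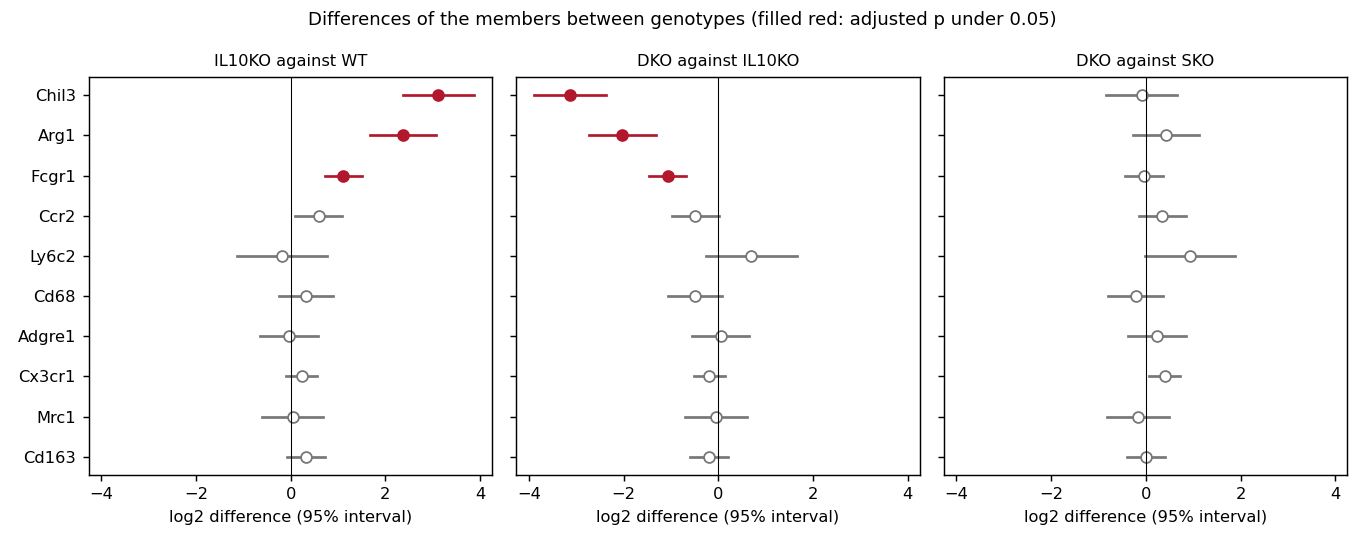
Log2 differences of the 10 genes with 95% intervals (n = 3 arrays per genotype) with 1 panel each for IL10KO against WT, DKO against IL10KO and DKO against SKO; filled red points passed limma's test at an adjusted p under 0.05. Chil3, Arg1 and Fcgr1 lie at 3.12, 2.38 and 1.11 in the first panel and at -3.13, -2.03 and -1.07 in the second, and no gene is filled in the third.

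Loss of IL-10 in mice without STING, DKO against SKO, gave no call among the 10 genes by limma, and 1, Cx3cr1, at an unadjusted p under 0.05. Over all genes 10 were called (0.0451%). Cx3cr1 was higher on all 3 DKO arrays than on any SKO array, with a difference of 0.40 ± 0.15 (95% interval 0.07 to 0.72, limma adjusted p = 0.998). Ly6c2 (0.94 ± 0.44, 95% interval -0.01 to 1.89) and Arg1 (0.42 ± 0.33, 95% interval -0.28 to 1.13) had non-overlapping arrays as well. Such arrays occurred for these 3 of the 10 genes and for 11.1% of all genes. Chil3 had a difference of -0.09 (95% interval -0.84 to 0.66) and Fcgr1 of -0.03 (95% interval -0.43 to 0.37), so the size of their rise in IL10KO over WT lay outside both intervals. Chil3 signals of both genotypes were about or under the lower quartile of the arrays, so a small change or a fall may go unseen. The spread behind these tests is shared with the IL10KO arrays, whose SD for Arg1 was 0.93, against 0.05 in SKO and 0.30 in DKO. Limited to the genotypes compared, the fit called none of the 10 genes either.

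The difference between these effects, (DKO minus SKO) minus (IL10KO minus WT), asks whether loss of IL-10 moved a gene differently in the absence of STING. Of the 10 genes only Chil3 passed, at -3.21 ± 0.49 (95% interval -4.27 to -2.15, limma adjusted p = 0.0118), against 143 of all genes (0.645%). Over 19 alternatives, single omissions among them, its limma adjusted p lay between 5.55e-05 and 0.0427. Arg1 (-1.96 ± 0.46, limma adjusted p = 0.0811) and Fcgr1 (-1.14 ± 0.26, limma adjusted p = 0.0715) missed the threshold. Both passed without IL10KO replicate 1, at -2.49 (limma adjusted p = 0.000124) and -1.39 (limma adjusted p = 0.00234). The 3 genes were those with an unadjusted p under 0.05, and Ly6c2 had the only difference above 1 in the other direction (1.13 ± 0.63, limma adjusted p = 0.39).

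Neither the double knockout nor the STING knockout differed from WT in any of the 10 genes by the test. In DKO against WT the differences ran from -0.17 (Cd68) to 0.52 (Ly6c2), with none at an unadjusted p under 0.05, and 10 of all genes were called (0.0451%). In SKO against WT they ran from -0.43 (Ly6c2) to 0.17 (Mrc1), with Cx3cr1 alone at an unadjusted p under 0.05 (-0.35 ± 0.15), and no gene of the array was called (0%), while 454 of all genes had an unadjusted p under 0.05. Without the library labelled WT replicate 3 no gene of the 10 was called in either comparison, and the differences ran from -0.07 (Cx3cr1) to 0.62 (Ly6c2) in DKO and from -0.47 (Cx3cr1) to 0.21 (Mrc1) in SKO.

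The contrast between inflammatory and resident genes can be read array by array. Each gene was centred on its mean over 12 arrays, and the mean of the resident genes was taken from that of the inflammatory ones. This gap was 0.87, 1.15 and 0.74 on the IL10KO arrays. On the WT arrays it was -0.29, -0.44 and -0.29, on the SKO arrays -0.47, -0.27 and -0.43 and on the DKO arrays -0.42, 0.01 and -0.16. The IL10KO arrays lay above the other 9, and the DKO arrays overlapped both WT and SKO. The group means were 0.92 ± 0.21 (SD, n = 3) in IL10KO, -0.34 ± 0.08 in WT, -0.39 ± 0.11 in SKO and -0.19 ± 0.22 in DKO. The gap is a description with no test, since the genes were chosen with results known, and it rests on Chil3, Arg1 and Fcgr1 and not on the other inflammatory genes.

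IL10KO replicate 1 had the lowest level of both groups in its genotype, 0.61 for the inflammatory and -0.26 for the resident genes, and still a gap between those of the other IL10KO arrays. IL10KO replicates 2 and 3 had 1.39 and 1.09 for the inflammatory and 0.25 and 0.35 for the resident genes. The resident level spanned -0.34 to 0.24 on the arrays of the other genotypes.

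**Figure D3:**
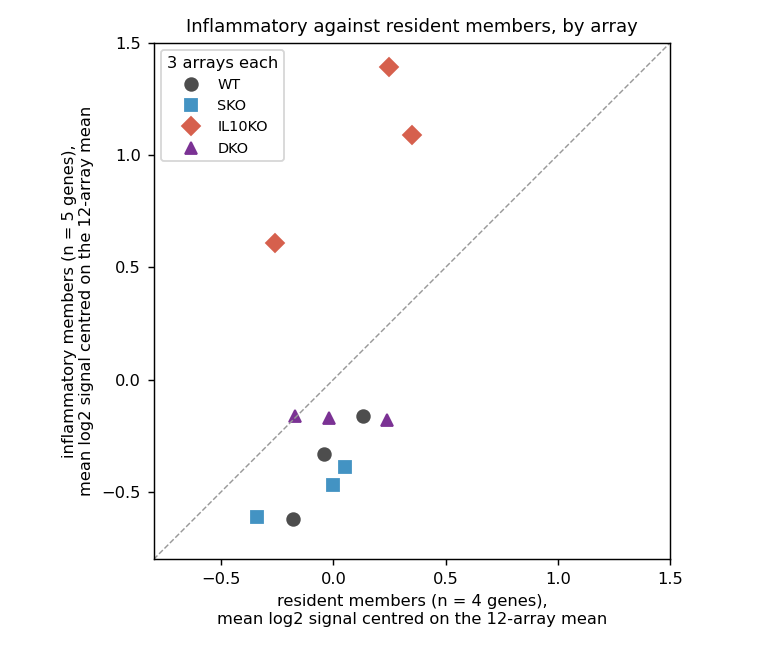
Mean log2 signal of the 5 inflammatory genes against that of the 4 resident genes on each of the 12 arrays, both centred on the mean over 12 arrays; the dashed line marks equal values. The 3 IL10KO arrays lie above the line by 0.74 to 1.15. The other arrays lie below it, except DKO replicate 2, which lies above it by 0.01.

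Other genes of the lineage were read from lists chosen by name. Among 22 measured genes of recruited monocytes and inflammatory macrophages, 10 rose in IL10KO against WT and none fell, with a median of 0.90, where 3.12% of all genes were called higher. Il1b, the pyrogenic cytokine, rose by 3.46 ± 0.44 (limma adjusted p = 0.000548), Nos2, the inducible nitric oxide synthase, by 2.65 ± 0.31 and Clec4e, the receptor Mincle, by 2.16 ± 0.24. All 3 calls held without any single array, as did their calls in the next comparison. In DKO against IL10KO 12 of the 22 were lower and none higher (median -0.91), where 2.45% of all genes were called lower. Among the 12 were Il1b (-3.49 ± 0.44, limma adjusted p = 0.000683), Clec4e (-2.28 ± 0.24) and Nos2 (-1.86 ± 0.31). That count was 7 without DKO replicate 1 or 2, and 7 rose when the library labelled WT replicate 3 was omitted.

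Clec4e read 4.81, 5.91 and 4.96 in IL10KO, 3.09, 3.12 and 3.0 in WT, 2.97, 3.15 and 2.70 in SKO and 3.18, 2.93 and 2.74 in DKO. All IL10KO arrays lay above the other 9, with replicate 2 the highest, where Chil3 was highest on replicate 1. Outside IL10KO its signals were under the lower quartile of all 12 arrays, so its differences from those genotypes are read as lower bounds. It was the only gene of this list that passed in the difference of effects (-2.15 ± 0.34, limma adjusted p = 0.0122). That count was 2 with IL10KO replicate 2 left out, 3 with WT replicate 1 or IL10KO replicate 3 left out and 5 with IL10KO replicate 1 left out, and the call of Clec4e itself held each time. Neutrophils are also known to express Il1b and Clec4e.

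Of 20 genes shared by the whole lineage, 6 rose in IL10KO (median 0.69), among them Itgam, the CD11b integrin chain (1.10 ± 0.27, limma adjusted p = 0.0252), the signalling adaptor Tyrobp (0.96 ± 0.25, limma adjusted p = 0.0326) and Fcer1g (0.95 ± 0.22, limma adjusted p = 0.0204), the chain that Fcgr1 needs at the surface. These calls rested on single arrays. The count was 0 without WT replicate 2 or IL10KO replicate 3, 2 without the library labelled WT replicate 3 and at most 8 in any single omission. Tyrobp was also lost without WT replicate 1. The direction was steadier than the calls: all 20 genes had a difference above 0, against 53.6% of all genes. Over single omissions the median ran from 0.48 to 0.88. In DKO against IL10KO 4 were lower (median -0.63), including Tyrobp (-1.07 ± 0.25), Fcer1g (-1.02 ± 0.22) and the low-affinity Fc receptor Fcgr3 (-0.82 ± 0.20, limma adjusted p = 0.0325). That count was 8 without WT replicate 1 or IL10KO replicate 1, 2 without DKO replicate 1 and 0 without IL10KO replicate 3 or DKO replicate 2. Of the 3 named, Fcgr3 was also lost without IL10KO replicate 2 or DKO replicate 3. In DKO against IL10KO 19 genes of this list had a difference below 0 and 1 above, where 45.5% of all genes lay above 0. In neither comparison did a gene of this list pass in the opposite direction. Of all genes, 3.12% were called higher in IL10KO against WT and 2.45% lower in DKO against IL10KO.

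Of 22 measured genes of resident tissue macrophages, 3 rose in IL10KO and 19 did not pass (median 0.13), where 3.12% of all genes were called higher. Vsig4, a complement receptor whose WT signals (3.10 to 3.42) were also under the lower quartiles, rose by 0.94 ± 0.20 (limma adjusted p = 0.0126), Apoe, the lipid carrier, by 0.78 ± 0.16 and C1qa, a chain of complement C1q, by 0.68 ± 0.16 (limma adjusted p = 0.0217). The count was 1 without WT replicate 2, which ended the calls of Vsig4 and C1qa, and 1 without the library labelled WT replicate 3, which ended those of Apoe and C1qa. C1qa was also lost without IL10KO replicate 3. In DKO against IL10KO Vsig4 (-0.79, limma adjusted p = 0.0347) and Apoe (-0.78, limma adjusted p = 0.0155) were lower (median of the list -0.13), where 2.45% of all genes were called lower. Neither passed without DKO replicate 1 or 2, and without IL10KO replicate 2 the list had 3 lower and 1 higher. It had 1 lower without SKO replicate 1, IL10KO replicate 3 or DKO replicate 3, and Vsig4 was lost in each of these and without IL10KO replicate 2.

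Genes known from alternative activation, the state that IL-4 and IL-13 bring about, moved in both directions. Of 14 measured, 2 rose and 2 fell in IL10KO (median 0.08), and 2 rose and 1 fell without WT replicate 1, IL10KO replicate 1 or the library labelled WT replicate 3. Of all genes, 3.12% were called higher and 5.01% lower in IL10KO against WT. Arg2, given above, and Il4ra, the IL-4 receptor chain (1.11 ± 0.14, limma adjusted p = 0.000709, named here to complete the count), rose. Retnla, which encodes RELMα, fell by 2.44 on the log2 scale (SE 0.59, limma adjusted p = 0.0237) and Socs2, a suppressor of cytokine signalling, fell by 1.37 (SE 0.28, limma adjusted p = 0.0103). Retnla read 3.02, 5.22 and 5.54 in IL10KO, against 7.20, 6.40 and 7.51 in WT, 7.49, 5.65 and 7.40 in SKO and 7.27, 6.89 and 7.60 in DKO. All IL10KO arrays lay below the other 9, and replicate 1, the array with the most Chil3, had the least Retnla.

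Chil3, Arg1 and Retnla are commonly read together as a signature of that state, and here the first pair rose where Retnla fell. The Retnla call was lost without WT replicate 1 (limma adjusted p = 0.0688), IL10KO replicate 1 (limma adjusted p = 0.0586) and also with the library labelled WT replicate 3 omitted (limma adjusted p = 0.0833). In DKO against IL10KO Retnla (2.66 ± 0.59, limma adjusted p = 0.0193) and Socs2 (1.07 ± 0.28, limma adjusted p = 0.0381) were higher, and Arg2 (-1.01 ± 0.21, limma adjusted p = 0.0148) and Il4ra (-0.96 ± 0.14) lower (median of the list -0.22). Without DKO replicate 1 or 3 none was higher and 1 lower, and without WT replicate 2, SKO replicate 3, IL10KO replicate 1, IL10KO replicate 3 or DKO replicate 2 only 1 was higher. The call of Retnla ended without DKO replicate 1 or 3, as did that of Arg2, and the call of Socs2 in 7 of the 12 single omissions. Of all genes, 3.34% were called higher and 2.45% lower in DKO against IL10KO.

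Ligands and receptors of monocyte recruitment and macrophage growth rose in 5 of 18 measured cases in IL10KO (median 0.27), where 3.12% of all genes were called higher. Ccl5 rose by 1.62 ± 0.39 (limma adjusted p = 0.0244), Ccl2, the ligand of CCR2, by 1.29 ± 0.29 (limma adjusted p = 0.0164), and Csf2rb, the shared chain of the GM-CSF receptor, by 1.18 ± 0.20 (limma adjusted p = 0.00345). The call of Csf2rb held without any single array, that of Ccl2 was lost without WT replicate 2 or the library labelled WT replicate 3, and that of Ccl5 without either of these or IL10KO replicate 3. The count was 1 without WT replicate 2, 2 without IL10KO replicate 3 and 3 without SKO replicate 1, SKO replicate 3, IL10KO replicate 2 or DKO replicate 2. With the library labelled WT replicate 3 omitted, 1 rose and 1 fell.

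In DKO against IL10KO 4 of the 18 were lower (median -0.45), where 2.45% of all genes were called lower. The 4 included Ccl2 (-1.18 ± 0.29, limma adjusted p = 0.0308), Csf2rb (-1.04 ± 0.20, limma adjusted p = 0.00898) and the chemokine gene Ccl7 (-0.89 ± 0.24, limma adjusted p = 0.0461). The count was 2 without IL10KO replicate 2 or 3, 1 without DKO replicate 2 and 0 without DKO replicate 1. Csf2rb was lost without DKO replicate 1, and Ccl7 in 8 of the 12 single omissions. No gene of the 5 lists was called in DKO against SKO, DKO against WT or SKO against WT on all 12 arrays.

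**Figure D4:**
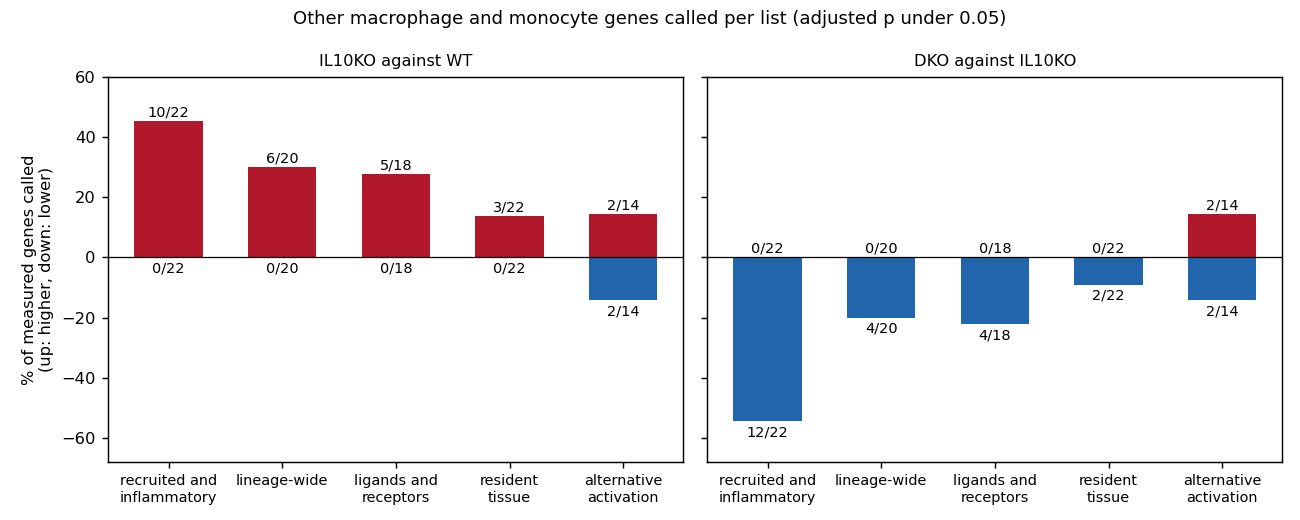
Percentage of the measured genes of 5 lists called higher (upward, red) or lower (downward, blue) by limma at an adjusted p under 0.05, for IL10KO against WT (left) and DKO against IL10KO (right), with counts at the bars. The list of recruited monocytes and inflammatory macrophages has 10 of 22 higher and then 12 of 22 lower, and the resident list 3 of 22 higher and then 2 of 22 lower. Of all genes, 3.12% were called higher on the left and 2.45% lower on the right.

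Markers of neutrophils and of squamous tissue moved along with the 3 called genes. The mean signal of 17 neutrophil markers was 5.71, 6.76 and 6.17 on the IL10KO arrays and 4.35 to 4.51 on the other 9, and 12 of them rose in IL10KO against WT, a count that stayed at 12 without the library labelled WT replicate 3. The mean signal of 18 squamous and sebaceous genes was 5.40, 7.25 and 7.31 in IL10KO, 5.33 in DKO replicate 3 and 4.42 to 4.67 on the other arrays. Of these, 14 rose in IL10KO, and 9 without IL10KO replicate 3 or the library labelled WT replicate 3. Beside both counts, 3.12% of all genes were called higher in IL10KO against WT. Arg1 was highest on the IL10KO arrays with the most squamous signal, replicates 2 and 3, and on DKO replicate 3 among the DKO arrays, while Chil3 was highest on IL10KO replicate 1, which had the least squamous and the least neutrophil signal of its genotype. Fcgr1, like Arg1, was highest on replicates 2 and 3.

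With IL10KO replicates 2 and 3 left out together, IL10KO replicate 1 alone gave a difference from WT of 3.81 for Chil3 (limma adjusted p = 5.66e-05), 1.32 for Arg1 (limma adjusted p = 0.00547) and 0.62 for Fcgr1 (limma adjusted p = 0.044). This fit was added after the data had been seen, and it assumes that the lone array varies like the other genotypes. In it Arg1 (-0.97, limma adjusted p = 0.02) and Chil3 (-3.82, limma adjusted p = 3.9e-05) remained lower in DKO, and Fcgr1 did not pass (-0.58, limma adjusted p = 0.0584). In the same fit the median difference from WT was 0.55 over the genes of recruited monocytes and inflammatory macrophages, against 0.90 on all arrays. It was 0.31 in place of 0.69 for the whole lineage and -0.02 in place of 0.13 for resident macrophages. For the recruitment ligands and receptors it was 0.20 in place of 0.27, and for the alternative activation genes -0.03 in place of 0.08. The neutrophil markers had a median of 0.97 in place of 1.63, and the squamous and sebaceous genes 1.03 in place of 2.44. The part of neutrophils or of squamous tissue in these results was not tested further.

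Markers of other cells were read in the same way. None of 13 dendritic cell markers (mean signal 6.11 to 6.36 in IL10KO, 5.88 to 6.13 in WT) and none of 6 eosinophil markers (4.07 to 4.41 and 3.95 to 4.18) passed in IL10KO against WT on all 12 arrays. Of the dendritic cell markers, 1 or 2 passed without WT replicate 1, SKO replicate 1, SKO replicate 2, IL10KO replicate 2 or the library labelled WT replicate 3. Of 13 T and NK cell markers 4 rose (median difference 0.53), with a mean signal of 5.60 to 5.77 in IL10KO and 4.77 to 5.60 in WT, of which 2 still passed with the library labelled WT replicate 3 omitted. The count was 1 without WT replicate 2, SKO replicate 1, SKO replicate 3, IL10KO replicate 3, DKO replicate 2 or DKO replicate 3. Of 12 endothelial markers, 1 rose, and 1 was lower in DKO than in IL10KO, calls that were lost in 9 and 4 of the 12 single omissions. Among all genes, 3.12% were called higher in IL10KO than in WT and 2.45% lower in DKO than in IL10KO. The mean signal of the acinar genes was 4.73 to 5.02 in IL10KO, and 5 of them were lower there than in WT, where 5.01% of all genes were called lower, and 12 without the library labelled WT replicate 3. Of the colon epithelial markers, 3 of 10 fell in IL10KO against that share of 5.01%, and 3 were higher in DKO than in IL10KO, where 3.34% of all genes were called higher.

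**Figure D5:**
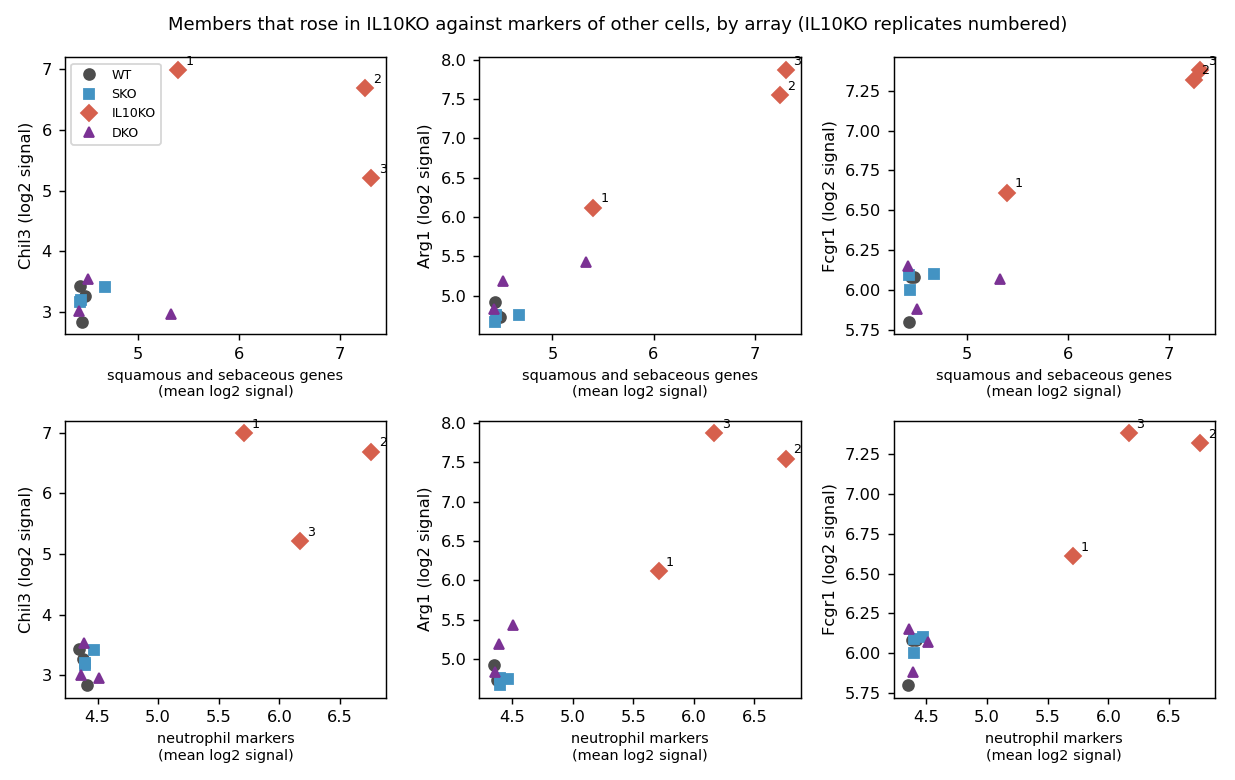
Log2 signal of Chil3, Arg1 and Fcgr1 on each of the 12 arrays against the mean log2 signal of 18 squamous and sebaceous genes (top) and 17 neutrophil markers (bottom), with the IL10KO arrays numbered by replicate. Arg1 and Fcgr1 are highest on IL10KO replicates 2 and 3, where the squamous mean is 7.25 and 7.31, and Chil3 on replicate 1, where it is 5.40.

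The genes whose profile over the 12 arrays came closest were found for Chil3, Arg1, Fcgr1, Mrc1 and Cd163. The measure was the root mean square (RMS) difference of centred log2 signals, a smaller value meaning a closer profile. For Chil3, whose own RMS about its mean was 1.41, they were Dio2 (0.44), Mmp10 (0.486) and Lrg1 (0.53). For Arg1 (own RMS 1.08) they were Tmprss11a (0.18), Il1f9 (0.283) and Cst6 (0.289). Fcgr1 (own RMS 0.505) had Tfap2a (0.127), Adgrf4 (0.145) and Plek2 (0.166). Those of Mrc1 (own RMS 0.377) were Ptafr (0.133), Siah1a (0.135) and F13a1 (0.145), and those of Cd163 (own RMS 0.231) were Ms4a4d (0.10), Slc2a1 (0.108) and Ackr1 (0.109). Of these genes, Arg1 had the closest match relative to its own spread. Its match Cst6 read 3.88, 5.37 and 6.48 in IL10KO and 3.06 in DKO replicate 3, the arrays on which squamous genes were high. The matches of Mrc1 and Cd163 are close partly because these genes varied little.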

How the data were processed

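Mouse colon RNA, prepared with QIAGEN columns and labelled with the GeneChip WT PLUS kit per the labels' protocols, was measured on 12 arrays, 3 per genotype. The authors deposited 1 table of log2 signals by probe set. The submitters' processing notes name Affymetrix Expression Console (version 1.3.1.187). The sources used here do not give background correction, summary, normalization or build, and the log2 scale was inferred from the values. No detection calls are given, so a dim signal is not called absent. The number of arrays limits the precision.

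Of 41345 probe sets, 23521 had 1 symbol in the platform annotation, 1814 several and 16010 none. Entrez identifiers of 23328 matched a mouse gene table (GRCm38.p6), used only for names and gene order, and 0 symbols changed. The brightest probe set stood for each of 22180 genes (1082 had several). Genotypes came from the labels, and replicate numbers follow the order of the samples and pair nothing. Dates in the labels rise by 1 year with each sample and were not used as batches.

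All arrays were fitted by limma (3.58.1, R 4.3.3), 1 mean for each genotype (8 residual and 5.56 prior degrees of freedom), 2-sided, with Benjamini-Hochberg adjustment over 22180 genes and a threshold of 0.05. Intervals are the fit's 95% intervals. Each gene has 1 spread shared by the 4 genotypes, but IL10KO arrays varied more for some genes. The SD of Arg1 was 0.93 in IL10KO, 0.11 in WT, 0.05 in SKO and 0.30 in DKO. For such genes the intervals are too narrow for comparisons with IL10KO and too wide for those without it. On simulated data for IL10KO against WT over 22180 genes, the fit called 70% of 100 genes shifted by log2 1 and 99% of 100 shifted by log2 2, and made 12 false calls. The simulated noise was independent, with 1 SD per gene in every genotype, and only 200 genes were shifted. These rates therefore do not carry over to genes that varied more in IL10KO.

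The genes, lists and tests were chosen with earlier results of these data known. Named are the 10 genes, the copies Chil4 and Ly6c1, Sting1, Il10, and up to 3 called genes per list and comparison with the largest difference. For Chil3, Arg1, Mrc1 and Cd163 the 3 genes of closest profile are named, and those of Fcgr1 were added later. The list of colon epithelial markers was added after the data had been seen. As alternatives, arrays were quantile normalized, median centred or weighted, the dimmest 33.3% of genes were left out, probe sets of a gene were averaged, and the fit was limited to the genotypes compared or given a trended and robust prior. Others were another split of inflammatory and resident genes, single arrays left out and 2 sets of arrays left out together.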

Additional observations from a re-analysis of the deposited data

Results flagged for a closer look

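Of the macrophage and monocyte genes and their named relatives, 3 differed in the effect of IL-10 loss between mice with and without STING, by limma's test of that difference itself. Chil3, the only one of the 10 genes that passed, differed by -3.21 (limma adjusted p = 0.0118). The related chitinase-like gene Chil1, named after its values were seen, differed by -2.46 (limma adjusted p = 0.00477). Its means were 4.59 in WT, 4.75 in SKO, 6.94 in IL10KO and 4.64 in DKO. Clec4e, the only gene that passed among 22 of its list, differed by -2.15 (limma adjusted p = 0.0122). It was named for its large differences in IL10KO against WT and DKO against IL10KO, which share arrays with this test. The naming of Chil1 and Clec4e thus favoured a pass, and the count of 3 is not a rate among genes chosen beforehand. All 3 calls held without any single array. Of 17 neutrophil markers, 7 also passed in this test, against 0.645% of all genes. That count was 3 without SKO replicate 2 or DKO replicate 2, 4 without DKO replicate 1 and 12 without IL10KO replicate 1.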

How the results depend on the processing

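Over the 10 genes and 4 comparisons, 775 of 826 values under the alternatives kept their direction and their side of the threshold, 1 lost its call, 8 gained one and 42 changed sign. The calls of Chil3, Arg1 and Fcgr1 in IL10KO against WT held under every alternative that gave a value, and those in DKO against IL10KO held except for Fcgr1 without IL10KO replicates 2 and 3 together. Chil3 was left out by the filter on the dimmest genes, since its mean is low.

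In the difference of effects the count of called genes was 1. It was 2 with quantile normalization, 0 without the dimmest 33.3% of genes, 3 with array weights and 3 with IL10KO replicate 1, SKO replicate 2 and the library labelled WT replicate 3 left out together. Without single arrays it was 1 to 3. The cause was not tested, except that the filter removes Chil3.

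No value that changed sign had passed the test. In IL10KO against WT these were Ly6c2 (0.30 without the 3 arrays together), Adgre1 (0.08 quantile, 0.11 array weights, 0.25 without the 3 arrays), Mrc1 (-0.83) and Cd68 (-0.20), the last pair without IL10KO replicates 2 and 3. In DKO against IL10KO they were Adgre1 (-0.04 quantile, -0.18 array weights, -0.24 without the 3 arrays), Mrc1 (0.00 median centring, 0.83 without IL10KO replicates 2 and 3) and Cd68 (0.03 without those). In DKO against SKO they were Chil3 (0.06 array weights) and Cd163 (-0.16 array weights, -0.11 without the 3 arrays). In the difference of effects they were Ccr2 (0.23) and Mrc1 (0.66) without IL10KO replicates 2 and 3, and Adgre1 (-0.06 array weights, -0.20 without the 3 arrays).

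Without single arrays the IL10KO against WT values ran from -0.77 to 0.29 (Ly6c2), -0.41 to 0.26 (Adgre1), -0.25 to 0.48 (Mrc1) and -0.02 to 0.59 (Cd68). Those of DKO against IL10KO ran from -0.24 to 0.43 (Adgre1) and -0.48 to 0.25 (Mrc1), and those of DKO against SKO from -0.28 to 0.01 (Chil3), -0.09 to 0.04 (Fcgr1) and -0.11 to 0.13 (Cd163). The difference of effects ran from -0.03 to 0.65 (Adgre1) and -0.65 to 0.08 (Mrc1). The gap between inflammatory and resident genes moved by less than 0.17, its SD between arrays of a genotype, wherever it was recomputed. The gap was not recomputed with array weights, with the trended and robust prior or with only the genotypes compared. Leaving out the dimmest genes gave no value for it either, since that filter removes Chil3. Fits with only the genotypes compared could not be made for the difference of effects, which needs all 4. No paired analysis was possible because the labels give no replicate numbers that groups share. The number of arrays limits the precision, and Chil4 on all arrays and Chil3 outside IL10KO were too dim to give more than bounds.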
